A study of Mus musculus with 8 samples.

Results

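The genes described here are 10 genes of the monocyte and macrophage programme together with receptors of the colony-stimulating factors (CSFs): Csf1r, Csf2ra, Csf3r, Itgam, Lyz2, Fcgr1, Fcgr3, Ly6c2, Cd14 and Adgre1. They were chosen by name, for their known roles, from the 24538 gene IDs of the deposited RNA tables, and each had 1 entry in every library. Open chromatin was read in the span of each gene plus 50 kb on either side, which held 189 of the 134830 regions found in the ATAC-seq lists. The cells were bone marrow LSK progenitors (early cells that express Sca-1 and c-Kit and lack lineage markers) from mice with a tamoxifen-inducible Cre, CreER, which all donors carried. The knockout donors had floxed Tcf7 and floxed Lef1, the genes of the transcription factors TCF1 and LEF1, and the control donors were CreER-positive and wild type. Both groups were grown on OP9-DL1, received 4-hydroxytamoxifen on days 3 to 5, and were sorted on day 7 as c-Kit-positive DN1 cells (lineage-negative, CD4-negative, CD8-negative, CD44-high, CD25-negative). Each assay had 2 knockout and 2 control libraries. The labels do not give the age of the mice, the antibodies of the lineage gate, or the animal or culture behind each replicate, so that p-values measure only the spread between these libraries, which may be technical.

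The CSF receptors carry the signals by which progenitors become monocytes, macrophages and neutrophils. Csf1r binds M-CSF and interleukin-34, Csf2ra is the ligand-specific chain of the GM-CSF receptor and needs the shared beta chain Csf2rb, and Csf3r binds G-CSF; Csf1r is itself a tyrosine kinase, while the GM-CSF and G-CSF receptors signal through JAK kinases and STAT factors. Early thymic progenitors keep a myeloid potential that is lost as Notch signalling drives them into the T lineage, and myeloid genes are therefore followed at the DN1 stage. OP9, the stroma, was derived from mice that lack functional M-CSF, and OP9-DL1 carries the Notch ligand Delta-like 1.

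RNA was measured as TPM (a transcript level scaled to transcript length and to the library's total). At least 1 TPM was reached by 13134 and 13050 genes in knockout, against 13188 and 13314 genes in control. Of the deleted genes, Tcf7 had 13.2 and 12.4 TPM in knockout, against 518 and 510 TPM in control, and Lef1 was low in both, at 1.46 and 1.57 TPM in knockout and 1.66 and 1.10 TPM in control, so that Lef1 RNA does not check the labels. Kit, for which the cells were sorted, had 157 and 157 TPM in knockout, against 251 and 238 TPM in control. Itgam, an antigen common in lineage gates, was above 20 TPM in every library. Il2ra, which encodes the CD25 that the gate excluded, had 0.658 and 0.393 TPM in knockout, against 136 and 133 TPM in control, so that Il2ra RNA was abundant in control cells labelled CD25-negative; its part in the changes below was not tested. Cd4, Cd8b1, Klrb1c and Ly6g were each below 1 TPM in every library. Summed levels of markers of other cells are given here beside their counts, to be read against 25.2% of all tested genes higher and 14.7% lower in knockout. The summed TPM of 13 stromal markers was 1714 to 2037 in knockout and 848 to 867 in control (8 of 11 tested rose, led by Postn, Acta2, Mgp and Dll1), with Dcn listed at 0 in every library. Of 13 tested neutrophil markers, 5 rose, led by Mpo, Prtn3, Ctsg and Elane, and 8 did not pass (median log2 change 0.25). The summed TPM of all 14 was 3510 to 3644 in knockout and 1913 to 1917 in control, with Retnlg listed at 0 in both knockout libraries. That of 12 mast cell and basophil markers was 572 to 588 in knockout and 249 to 257 in control (10 of 12 tested rose, led by Cma1, Mcpt2, Mcpt1 and Hdc, and 1 fell), and that of 14 dendritic cell markers was 378 to 418 in knockout and 554 to 560 in control (5 of 11 tested fell, led by H2-Eb1, H2-Aa, Cd74 and Itgax, and 1 rose). The summed TPM of 10 T-lineage markers was 77.0 to 80.3 in knockout and 493 to 494 in control (9 of 9 tested fell), with Cd3e listed at 0 in both knockout libraries. Ptprc, the pan-leukocyte antigen CD45, stood at 129 and 142 TPM in knockout and at 207 and 232 TPM in control (log2 change −0.69). The part of these differences in the changes below was not tested, and in bulk libraries fewer cells of a type and less RNA per cell cannot be told apart.

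The order of the levels was much alike in both genotypes. Lyz2 was the most abundant of the 10 genes, at the 94.4th percentile of the 13228 tested genes in knockout and the 95.0th in control, followed by Csf1r. In the knockout libraries Csf3r came next, then Fcgr3, Itgam, Ly6c2 and Csf2ra, and the values of Fcgr3, Itgam and Ly6c2 overlapped one another, as did those of Ly6c2 and Csf2ra. In the control libraries Itgam and Fcgr3 came after Csf1r, then Csf2ra, Csf3r and Ly6c2, with no overlap between neighbours in that order. Cd14, Adgre1 and Fcgr1 were the lowest in both genotypes, each with a mean below 5 TPM. The clearest change of place was that of Csf3r, which was above Itgam and Csf2ra in both knockout libraries and below both genes in both control libraries.

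**Figure D1:**
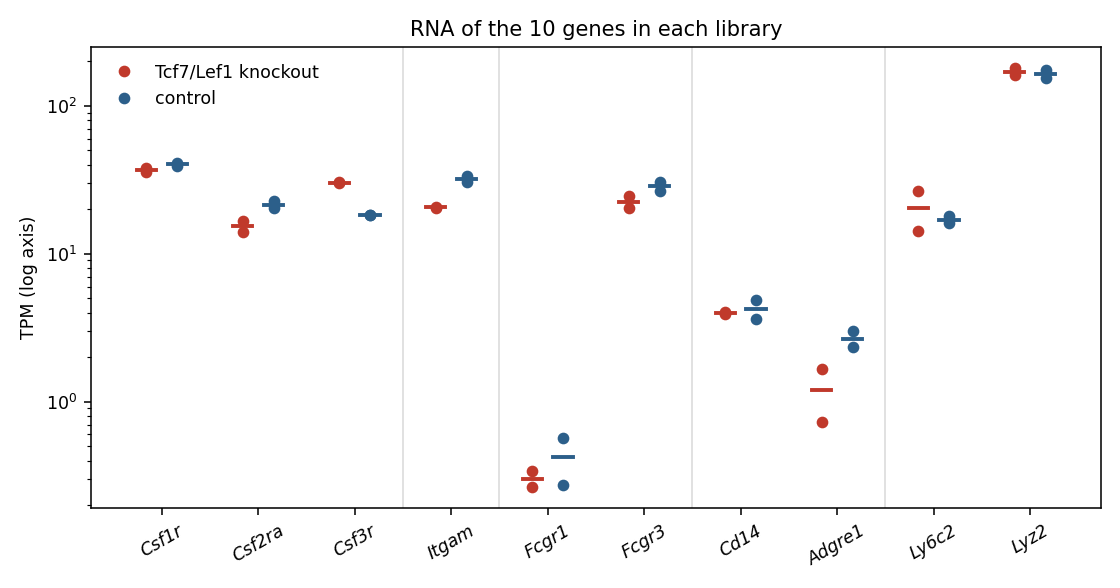
TPM of each of the 10 genes on a log axis, with 1 point per RNA library and a bar at the mean of the 2 knockout (red, left) and 2 control (blue, right) libraries. Csf3r is higher in both knockout libraries, Itgam and Csf2ra are lower, and the 2 knockout points of Ly6c2 lie apart at 14.2 and 26.4 TPM.

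Of the 10 genes, 9 had a mean of at least 1 TPM over the 4 libraries and were tested; Fcgr1 was not. Csf3r rose in knockout, Csf2ra and Itgam fell, and 6 did not pass (limma on log2(TPM + 1), Benjamini-Hochberg adjusted p under 0.05). Over all 13228 tested genes, 39.8% were called, 25.2% higher and 14.7% lower in knockout, so that 3 called of 9 is close to the background. At an unadjusted p under 0.05, 5 of the 9 passed, where 50.1% of all tested genes did. The split of all calls depended on scaling: lower calls made up 36.8% as deposited, 45.7% with Rpph1, an abundant RNA, taken out of the TPM, 46.8% with quantile-normalized values (2608 higher, 2296 lower) and 50.6% with median-ratio scaling (2451 higher, 2512 lower). The median log2 change was −0.13 over the 9 tested genes and 0.09 over all tested genes. Knockout values lay wholly below control values for 5 of the 9 tested genes (Csf1r, Csf2ra, Itgam, Fcgr3 and Adgre1), where 29.0% of all tested genes did so, and wholly above for Csf3r alone, where 44.4% of all tested genes did so. With 2 libraries against 2, an exact permutation test of a single gene cannot give a two-sided p below 0.333, and the tests therefore rest on a spread pooled across genes.

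**Figure D2:**
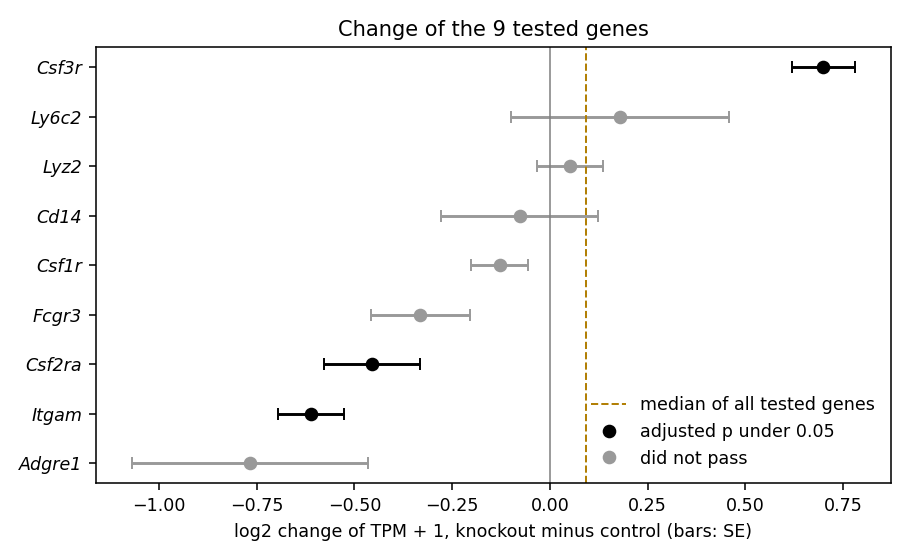
Log2 change of TPM + 1, knockout minus control, for the 9 tested genes, with bars of 1 SE from limma and 2 libraries per genotype; black points passed an adjusted p of 0.05. Csf3r lies at 0.70, Csf2ra at −0.45 and Itgam at −0.61, and the dashed line marks the median of all tested genes at 0.09.

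Of the receptors for the 3 CSFs, Csf3r rose, Csf2ra fell and Csf1r did not pass the test. Csf3r (chromosome 4, 126024659 to 126044975, plus strand, mm10) had 30.6 and 29.8 TPM in the knockout libraries, against 18.2 and 18.2 TPM in the control libraries. The groups did not overlap, and the knockout mean was 1.66-fold higher (30.2 ± 0.53 against 18.2 ± 0.017 TPM, SD, n = 2 each; log2 change 0.70, SE 0.081, limma adjusted p = 0.0025). This call held under every alternative tried, with adjusted p between 0.0019 and 0.024. Csf2ra (chromosome 19, 61224402 to 61228418, minus strand) had 16.7 and 14.1 TPM in knockout, against 22.6 and 20.3 TPM in control, again without overlap. Its knockout mean was 1.39-fold lower (log2 change −0.45, SE 0.12, limma adjusted p = 0.035). The Csf2ra call was lost without control replicate 1 (adjusted p = 0.16), control replicate 2 (0.089) or knockout replicate 2 (0.12), and when low genes were kept in (0.064); adjusted p ranged from 0.018 to 0.16 over the alternatives. Csf1r (chromosome 18, 61105572 to 61131139, plus strand) had 37.9 and 35.7 TPM in knockout and 39.4 and 41.3 TPM in control. Both knockout values were the lower ones, and the change did not pass the test (log2 change −0.13, SE 0.073, adjusted p = 0.21).

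Ratios between receptors within a library do not depend on its scaling; the pairs below were picked after the values were seen and are given without a test. The ratio of Csf3r to Csf2ra RNA was 1.83 and 2.12 in knockout and 0.809 and 0.898 in control. That of Csf3r to Csf1r was 0.807 and 0.835 in knockout and 0.463 and 0.441 in control. The GM-CSF receptor chains also diverged: the ratio of Csf2rb, the shared beta chain, to Csf2ra was 1.98 and 2.25 in knockout and 1.04 and 1.20 in control.

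Itgam, the alpha chain of the integrin Mac-1 (CD11b) on monocytes, macrophages and neutrophils, fell in knockout. It lies on chromosome 7 (128062640 to 128118491, plus strand) and had 20.5 and 20.7 TPM in knockout, against 33.4 and 30.7 TPM in control. Its knockout mean was 1.55-fold lower (20.6 ± 0.16 against 32.0 ± 1.9 TPM, SD, n = 2 each; log2 change −0.61, SE 0.085, limma adjusted p = 0.0043), and the call held under every alternative tried (adjusted p 0.0029 to 0.037). Its partner chain Itgb2 had 77.8 and 77.7 TPM in knockout and 68.5 and 75.8 TPM in control (log2 change 0.11, adjusted p = 0.25). The ratio of Itgam to Itgb2 RNA was 0.263 and 0.267 in knockout and 0.488 and 0.405 in control. The related alpha chains Itgax (CD11c) and Itgal, which pair with the same beta chain, fell with log2 changes of −0.69 and −0.42. The Itgax call was lost without control replicate 1 (adjusted p = 0.062).

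The Fc receptors for IgG stood at very different levels. Fcgr3 (CD16), the low-affinity activating receptor (chromosome 1, 171051169 to 171059403, minus strand), had 24.7 and 20.4 TPM in knockout and 30.6 and 26.5 TPM in control. The groups did not overlap, but the change did not pass (log2 change −0.33, SE 0.13, adjusted p = 0.089); after median-ratio scaling it did (−0.43, adjusted p = 0.041). Fcer1g, the signalling gamma chain that Fcgr3 and Fcgr1 need at the surface, fell 1.98-fold, with 96.2 and 82.3 TPM in knockout against 170 and 184 TPM in control (log2 change −0.98, adjusted p = 0.0012). The ratio of Fcgr3 to Fcer1g RNA was 0.256 and 0.248 in knockout and 0.180 and 0.144 in control. Fcgr2b, the inhibitory receptor for IgG, had 27.8 and 29.5 TPM in knockout and 25.7 and 25.2 TPM in control and did not pass (adjusted p = 0.16). Fcgr1 (CD64), the high-affinity receptor of monocytes and macrophages (chromosome 3, 96282909 to 96293969, minus strand), had 0.338 and 0.264 TPM in knockout and 0.275 and 0.570 TPM in control. Its mean read coverage was 0.422 and 0.332 per base in knockout and 0.320 and 0.587 per base in control, and no difference was detectable at this depth.

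Of the pattern and surface markers of mature cells, Cd14 and Adgre1 were low. Cd14, the lipopolysaccharide co-receptor (chromosome 18, 36725064 to 36726815, minus strand), had 4.01 and 3.89 TPM in knockout and 3.62 and 4.90 TPM in control, where the groups overlapped (log2 change −0.077, SE 0.20, adjusted p = 0.78; without control replicate 2 it was 0.10). Adgre1, the macrophage antigen F4/80 (chromosome 17, 57358686 to 57483529, plus strand), had 1.65 and 0.731 TPM in knockout and 3.00 and 2.32 TPM in control. Both knockout values were lower and the mean was 2.23-fold lower, the largest fold among the 10 genes, but with a wide error (log2 change −0.77, SE 0.30, adjusted p = 0.097; 0.070 to 0.29 under the alternatives). Adgre1 reads covered each base 2.07 and 0.918 times in knockout and 3.49 and 2.39 times in control.

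Lyz2 and Ly6c2 mark the myeloid and monocyte lineages. Lyz2, the lysozyme of macrophages and granulocytes (chromosome 10, 117277541 to 117282272, minus strand), had 161 and 179 TPM in knockout and 175 and 153 TPM in control. The groups overlapped, and the knockout mean was 170.0 ± 13 TPM against 164 ± 15 TPM in control (SD, n = 2 each; log2 change 0.051, SE 0.084, adjusted p = 0.66). The sign of the Lyz2 change was negative with quantile, median-ratio or Rpph1-free scaling and without control replicate 2 or knockout replicate 2. Ly6c2, which encodes the Ly6C antigen of inflammatory monocytes (chromosome 15, 75108161 to 75111949, minus strand), had 14.2 and 26.4 TPM in knockout and 18 and 16.0 TPM in control. The knockout libraries stood on either side of the controls (log2 change 0.18, SE 0.28, adjusted p = 0.64), so that knockout replicate 2 decided the direction: the log2 change was −0.25 without it (adjusted p = 0.25) and 0.61 without knockout replicate 1 (adjusted p = 0.039). Lyz2 and Lyz1, and Ly6c2 and Ly6c1, are near-identical pairs whose reads may have been split between them; Lyz1 was at most 0.670 TPM and Ly6c1 at most 0.938 TPM in any library.

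RefSeq promoters (GRCm38.p6, 250 bases before to 50 after the gene start) were available for 7 of the 10 genes. They are shown for Csf3r and Itgam, whose RNA rose and fell and whose starts were open in all ATAC lists, and for Fcgr3 and Ly6c2, which held matches to the searched myeloid motifs; capitals mark motif matches on either strand and each sequence reads 5′ to 3′ on the strand of its gene.
Csf3r promoter (chr4:126024409-126024708, plus strand): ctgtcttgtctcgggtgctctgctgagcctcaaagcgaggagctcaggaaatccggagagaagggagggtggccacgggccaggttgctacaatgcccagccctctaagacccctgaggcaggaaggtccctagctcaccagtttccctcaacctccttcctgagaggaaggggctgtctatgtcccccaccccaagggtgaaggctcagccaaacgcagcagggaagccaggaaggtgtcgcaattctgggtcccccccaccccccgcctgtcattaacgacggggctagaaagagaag
Itgam promoter (chr7:128062390-128062689, plus strand): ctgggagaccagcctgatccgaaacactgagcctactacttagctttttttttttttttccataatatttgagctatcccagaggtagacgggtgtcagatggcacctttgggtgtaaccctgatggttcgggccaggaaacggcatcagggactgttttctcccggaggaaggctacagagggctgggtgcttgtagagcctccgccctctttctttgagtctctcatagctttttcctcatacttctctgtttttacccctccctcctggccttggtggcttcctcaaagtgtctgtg
Fcgr3 promoter (chr1:171059354-171059653, minus strand): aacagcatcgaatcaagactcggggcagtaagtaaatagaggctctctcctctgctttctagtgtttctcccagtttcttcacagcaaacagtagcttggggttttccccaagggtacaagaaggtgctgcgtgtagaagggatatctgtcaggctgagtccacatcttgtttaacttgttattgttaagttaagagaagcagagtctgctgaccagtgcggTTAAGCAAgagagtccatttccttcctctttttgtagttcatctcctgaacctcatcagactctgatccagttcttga
Ly6c2 promoter (chr15:75111888-75112187, minus strand): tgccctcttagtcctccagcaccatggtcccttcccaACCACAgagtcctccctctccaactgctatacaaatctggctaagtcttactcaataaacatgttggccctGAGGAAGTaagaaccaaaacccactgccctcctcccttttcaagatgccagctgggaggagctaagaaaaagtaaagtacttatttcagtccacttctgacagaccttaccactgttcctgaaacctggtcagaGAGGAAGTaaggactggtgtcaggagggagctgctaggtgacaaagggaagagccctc
Both strands were searched for 8 short motifs. Those of TCF1 and LEF1 were CTTTGAT and, with a different last letter, CTTTGAA. Those of PU.1, the master factor of myeloid cells, were GAGGAAGT and the closely related GAGGAACT. The C/EBP family was searched as TTGCNNAA, the RUNX family as TGTGGT, the family of zinc finger factors named for its motif as AGATAA, and the factor AP-1 as TGANTCA. With positions counted from the RefSeq gene start and negative before it, the Ly6c2 promoter held GAGGAAGT at −142 and at −8, which do not overlap, and the RUNX motif on the opposite strand at −213; this start lies 12 bases from that in the RNA tables. GAGGAAGT was found in 3.2% of 32817 mouse promoter windows of the same length. The Fcgr3 promoter held the C/EBP motif on the opposite strand at −28, a motif in 10.8% of the windows. The Lyz2 promoter held the RUNX motif on the opposite strand at −66, a motif in 16.8% of the windows. The 2 TCF/LEF motifs, in 3.73% and 5.14% of all windows, were in none of the 7 windows of these genes, which says only that these letters are not there. The windows of Csf3r, Itgam, Csf2ra and Fcgr1 held none of the 8 motifs.

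Partners of these genes were followed in lists of 88 further genes (ligands, receptor partners, signalling genes, transcription factors, effectors, and partners and relatives), of which 69 were tested; 25 fell and 10 rose. Of all tested genes 14.7% were lower and 25.2% higher; these lists were written with earlier results of these data known. The number that rose was 4 to 6 when any 1 of the RNA libraries was left out.

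Of the ligands, Csf1 (M-CSF) alone was tested, with 16.0 and 5.93 TPM in knockout and 8.37 and 8.33 TPM in control (adjusted p = 0.70); without knockout replicate 2 it was called higher. Csf2, Csf3, Il3 and Il5 were each below 0.25 TPM in every library. Il34 had 1.44 and 1.63 TPM in knockout and 0.284 and 0.518 TPM in control, a mean too low for the main test. With low genes kept in, 5 of the 6 ligands were tested and 1 was called higher. Of 5 tested receptor partners, 2 rose and 1 fell, where 25.2% of all tested genes rose and 14.7% fell. Their median log2 change was 0.14. Csf2rb rose to 32.4 ± 1.1 TPM in knockout, against 23.9 ± 0.57 TPM in control (SD, n = 2 each; adjusted p = 0.011). Flt3, the receptor for FLT3 ligand, had 28.1 ± 3.2 and 19.5 ± 1.3 TPM (adjusted p = 0.020), and Kit, the stem cell factor receptor, fell with a log2 change of −0.64 (adjusted p = 0.00067). The Csf2rb call was lost without control replicate 1 or knockout replicate 1 (adjusted p = 0.059 and 0.058), and that of Flt3 without either control replicate or knockout replicate 2 (adjusted p = 0.064 to 0.11).

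Most of the listed signalling genes downstream of the CSF receptors fell in the main test. Of 15 tested, 12 fell, where 14.7% of all tested genes did, while Grb2, Fgr and Lyn did not pass. The list, written with earlier results of these data known, had a median log2 change of −0.46. Socs3, the feedback inhibitor of G-CSF and interleukin-6 family receptors, fell 3.62-fold, with 5.87 and 4.52 TPM in knockout against 18.2 and 19.3 TPM in control (adjusted p = 0.0013). Stat3, the main STAT of the G-CSF receptor, fell 1.88-fold to 77.4 ± 0.65 TPM in knockout, against 145 ± 3.0 TPM in control (adjusted p = 0.00037), beside the rise of Csf3r itself. Stat5b, which acts after the GM-CSF receptor, fell 1.70-fold (adjusted p = 0.0011), and the STAT5 target and feedback inhibitor Cish fell to 3.52 ± 0.51 TPM, against 7.02 ± 0.15 TPM in control (adjusted p = 0.015). The Cish call was lost without either control replicate or knockout replicate 2 (adjusted p = 0.062 to 0.082). The number that fell was 7 without control replicate 1 and 7 without control replicate 2, 10 without knockout replicate 1 and 8 without knockout replicate 2.

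Transcription factors of the monocyte and macrophage lineage moved in both directions. Of 16 tested, 6 rose and 4 fell, where 25.2% of all tested genes rose and 14.7% fell. The other 6 did not pass, and the list's median log2 change was −0.079. Klf4, needed for monocyte differentiation, fell 6.54-fold, with 7.21 and 7.49 TPM in knockout against 49.5 and 46.7 TPM in control (adjusted p = 0.00017). Cebpa, a factor of granulocyte and monocyte progenitors, rose 3.04-fold (adjusted p = 0.00043), Nr1h3 (liver X receptor alpha) rose to 3.83 ± 0.77 TPM in knockout, against 1.13 ± 0.65 TPM in control (adjusted p = 0.028), and Cebpe, a factor of late granulocytes, rose 2.17-fold (adjusted p = 0.021). Leaving out control replicate 1 or 1 of the knockout replicates ended the Cebpe call (adjusted p = 0.064 to 0.098). Leaving out control replicate 2 or 1 of the knockout replicates, or keeping low genes in, ended the Nr1h3 call (adjusted p = 0.057 to 0.13). The number that rose was 4 without control replicate 1, 3 without control replicate 2, 2 without knockout replicate 1, 2 without knockout replicate 2 and 4 with low genes kept in.

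**Figure D3:**
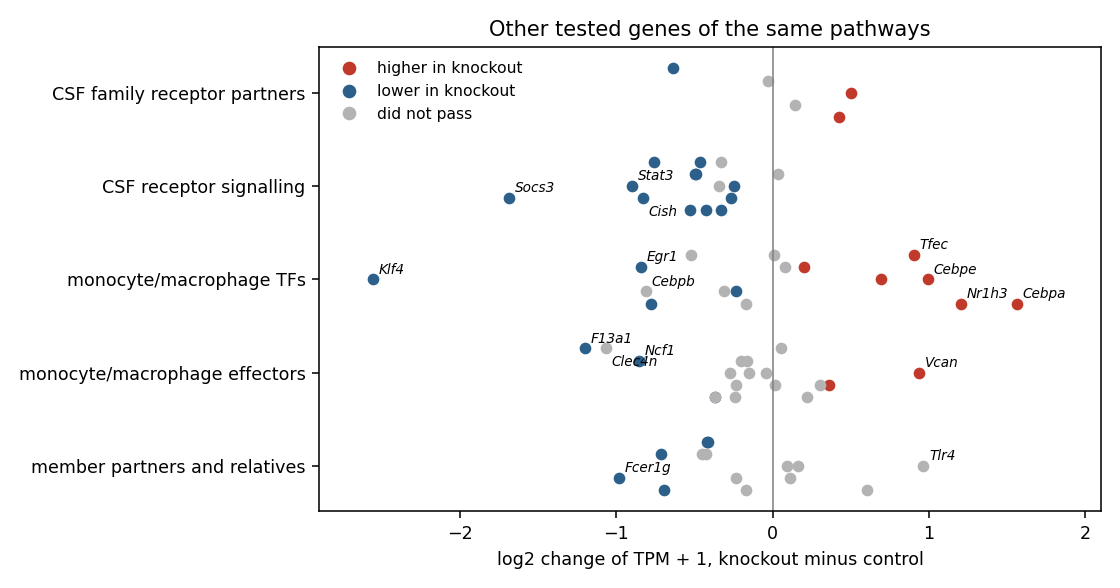
Log2 change of TPM + 1, knockout minus control, for the tested genes of 5 lists, 1 point per gene, with genes beyond 0.8 in either direction named and points spread vertically for legibility. Most signalling genes lie left of 0, and transcription factors reach from Klf4 at −2.55 to Cebpa at 1.56.

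Effector genes of monocytes and macrophages were split between measured and nearly silent ones. Of 26, 8 were too low to be tested, all of them genes of tissue macrophages: Msr1, Mrc1, Marco, Mertk, C1qa, C1qb, C1qc and Trem2, with Marco, C1qa and C1qc listed at 0 in both knockout libraries. The summed TPM of the 26 genes was 576 to 592 in knockout and 667 to 691 in control. Of the 18 tested, 3 fell and 2 rose, and the other 13 did not pass. Of all tested genes 14.7% were lower and 25.2% higher, so that the falls were near the background and the rises were below it. The list's median log2 change was −0.19. With median-ratio scaling 6 fell and 1 rose, and 1 rose when any 1 RNA library was left out. F13a1, the coagulation factor XIII A chain of monocytes, fell 2.41-fold to 12.2 ± 0.26 TPM in knockout, against 29.3 ± 1.5 TPM in control (adjusted p = 0.00089). Ncf1, a cytosolic subunit of the phagocyte NADPH oxidase, fell 1.82-fold (adjusted p = 0.00043), and Ccr2, the chemokine receptor by which monocytes leave the marrow, had a log2 change of −0.37 (adjusted p = 0.012). Vcan, the matrix proteoglycan versican that monocytes and stroma make, rose 1.96-fold to 66.1 ± 12 TPM, against 33.8 ± 0.14 TPM in control (adjusted p = 0.0040). The Ccr2 call was lost without control replicate 2 or knockout replicate 2 (adjusted p = 0.073 and 0.054). Of the 14 tested partners and relatives of the 10 genes, 5 fell, where 14.7% of all tested genes did. They were Fcer1g, Itgax, Itgal, Ly6e and Tyrobp, an adaptor chain of myeloid receptors that fell 1.64-fold. The other 9 did not pass, and the median log2 change was −0.32.

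ATAC-seq marks open chromatin by transposase insertions, and the authors' peak lists were compared by position. A region is the union of overlapping peaks (1 base or more) of the 4 lists. The knockout lists held 109380 and 111007 peaks and the control lists 103009 and 105227, outside the mitochondrial chromosome. Of the 189 regions in the windows of the 10 genes, 119 (63.0%) were in all 4 lists, where 59.1% of all 134830 regions were. In both knockout lists and neither control list were 13 (6.88%), against 6.63% of all regions, and in both control lists and neither knockout list were 11 (5.82%), against 4.79% of all regions. These shares were near those of all regions. ATAC depth is unknown from these lists and no test was made. Leaving out 1 library at a time gave 19 to 20 regions seen in the remaining knockout lists alone, 20 without knockout replicate 2 and 20 without control replicate 1. They were 10.3% to 10.9% of the window regions, where 9.47% to 12.8% of all regions had that pattern.

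The gene starts were open in both genotypes. For 8 of the 10 genes a region of all 4 lists covered the gene start, a state found for 80.5% of the tested genes with a start on these chromosomes. The exceptions were Csf2ra and Csf1r. The nearest region to the Csf2ra start, 1479 bases wide and in all 4 lists, had its centre 1285 bases inside the gene (chromosome 19, 61226394 to 61227872), with −log10 q of 291 and 280 in knockout and 271 and 228 in control. At Csf1r, a peak 282 bases inside the gene (chromosome 18, 61105721 to 61105987) was in both knockout lists, at −log10 q of 10.6 and 12.2, and in the first control list alone of the controls, at 11.3. The authors' −log10 q values describe peaks within a list, and their differences between lists are not read as changes.

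At the Csf3r start the peak (chromosome 4, 126024390 to 126024896) had −log10 q of 32.1 and 30.3 in knockout and 12.2 and 14.4 in control, and its fold enrichment was 9.67 and 9.63 in knockout and 6.62 and 7.59 in control. It overlaps the promoter shown above. Higher fold enrichment in both knockout lists was not particular to Csf3r. The Ly6c2 start peak had 19.0 and 17.7 in knockout and 13.4 and 12.6 in control. The Adgre1 start peak had 15.3 and 15.0 in knockout and 12.3 and 13.3 in control, and Cd14 had the same direction. At Fcgr1 both knockout values were lower, and at Itgam, Lyz2 and Fcgr3 the genotypes overlapped. Inside Csf3r, 3533 bases from its start, a region (chromosome 4, 126028092 to 126028292) was in both knockout lists (−log10 q 11.4 and 12.4) and in neither control list. The Csf3r window also held a knockout-only region 42860 bases from the start, nearest to the start of Oscp1, and a control-only region 20633 bases upstream. At the Itgam start the peak (chromosome 7, 128062518 to 128062819) had −log10 q of 58.9 and 61.7 in knockout and 63.6 and 60.1 in control. Inside Itgam, 963 bases from the start, a region (chromosome 7, 128063477 to 128063729) was in both control lists (−log10 q 7.58 and 27.2) and in neither knockout list. The Itgam window held the most regions of the 10 windows, 32, and also the most that were in 1 genotype only. It was 155852 bases long, longer than all but that of Adgre1 (224844 bases, 13 regions). Of the 32, 4 were in knockout only and 4 in control only, where 6.63% and 4.79% of all regions were. The knockout ones lay at −37049 to −44168 bases from the start (negative is upstream), where Trim72 has the nearest gene start. The strongest control one lay 89471 bases from the start, between Itgax and Itgad (chromosome 7, 128151950 to 128152272, −log10 q 28.4 and 33.8).

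**Figure D4:**
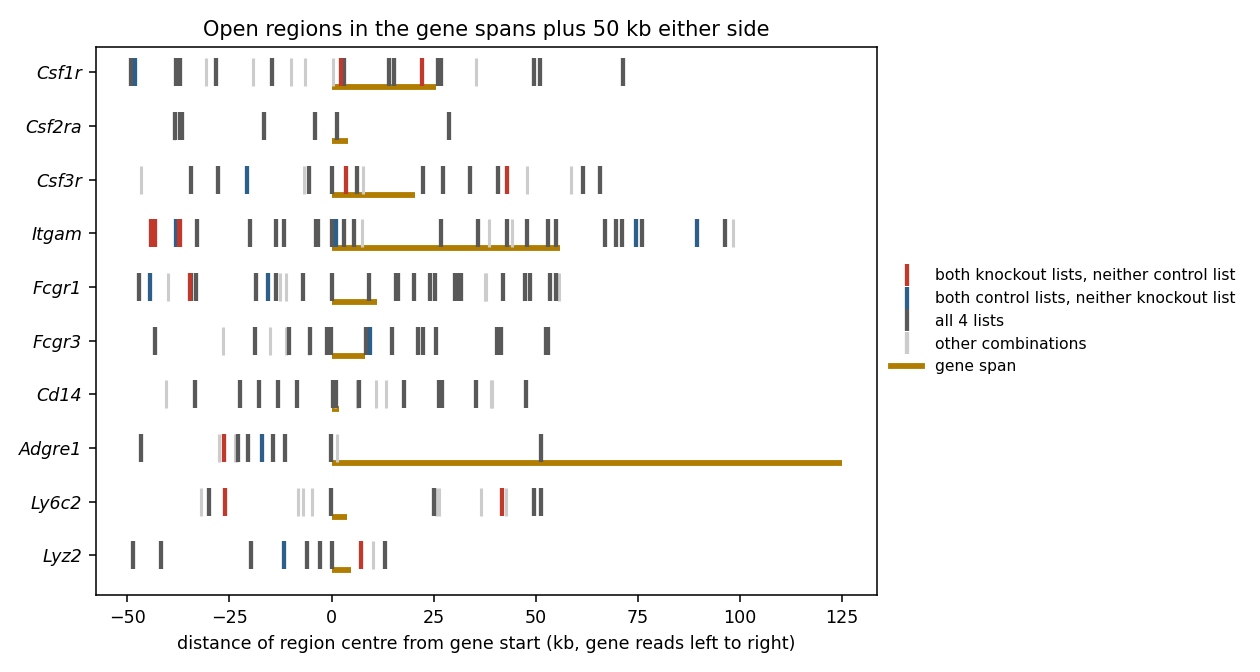
Open regions in the span of each gene plus 50 kb either side, by the distance of the region's centre from the gene start in kb, with red for both knockout lists alone, blue for both control lists alone, dark grey for all 4 lists and light grey for other combinations; the gold bar is the gene. Most regions (119 of 189) are dark grey, and Itgam has 4 red and 4 blue regions among its 32.

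At the other genes, single regions are given below. The strongest control-only region of the 10 windows lay at −11575 bases from the start of Lyz2 and 979 bases from the start of Lyz1 (chromosome 10, 117293686 to 117294009, −log10 q 60.4 and 63.9 in control), while Lyz1 RNA had 0.184 TPM in 1 knockout library, was listed at 0 in the other, and had 0.370 and 0.670 TPM in control. At Ly6c2, a region 4767 bases upstream (chromosome 15, 75116557 to 75116875) was absent from the first knockout list and at −log10 q 11.3 in the second, against 56.7 and 47.7 in control. Another, 8280 bases upstream (chromosome 15, 75120098 to 75120361), had 23.3 and 11.5 in knockout and 5.90 in the first control list, and was absent from the second. Both were picked after their values were seen. A knockout-only region lay at −25988 bases from the Ly6c2 start (chromosome 15, 75137832 to 75138043, −log10 q 23.4 and 23.2). At Csf1r, regions 2226 and 22121 bases inside the gene were in both knockout lists and neither control list (−log10 q of 13.1 and 13, and of 17.6 and 16.0). The Fcgr1 start, whose RNA was the lowest of the 10 genes, carried a peak in every list at −log10 q of 127 and 150 in knockout and 136 and 137 in control (chromosome 3, 96293737 to 96294197). The start peaks of Fcgr3, Lyz2, Ly6c2, Adgre1 and Cd14 were also in every list. The Fcgr3 start peak had −log10 q of 94.3 and 98.8 in knockout and 100.2 and 115 in control, and that of Lyz2 had 86.6 and 95.4 in knockout and 77.2 and 84.8 in control. The start peaks of Ly6c2 (49.4 and 44.9 in knockout, 31.5 and 31.6 in control) and Adgre1 (62.4 and 56.5 in knockout, 34.2 and 43.0 in control) were weaker within each list than that of Lyz2, and that of Cd14 was weaker still (20.5 and 20.8 in knockout, 10.6 and 13.7 in control).

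The remaining regions of 1 genotype lay outside the genes. In both knockout lists alone were regions centred 7225 bases downstream of the Lyz2 start, at −34672 bases from the Fcgr1 start, at −26230 bases from the Adgre1 start, and 41760 bases downstream of the Ly6c2 start, where Ly6c1 has the nearest gene start. In both control lists alone were regions at −15658 and −44337 bases from the Fcgr1 start, 9381 bases downstream of the Fcgr3 start, at −16943 bases from the Adgre1 start, and at −48079 bases from the Csf1r start, where Pdgfrb has the nearest gene start. The other control-only regions of the Itgam window lay at −37998 and 74506 bases from its start, where Trim72 and Itgax have the nearest gene starts. The windows of Csf2ra and Cd14 held no region of 1 genotype alone as the lists stand.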

How the data were processed

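RNA-seq and ATAC-seq were each measured in 2 knockout and 2 control libraries of c-Kit-positive DN1 cells. Per the submitters' processing notes, RNA was aligned with HISAT2 and quantified with StringTie, and the tools of the ATAC-seq side were Bowtie2 and MACS2, with mm10 as the build; for versions, thresholds and strand, "not given in the sources used here" applies. The deposited TPM and FPKM are the authors' values per the file headers, as is the deposited coverage, an unscaled signal per base. The deposited peak lists, 1 per library, give a fold enrichment (ratio) with −log10 p and −log10 q values by the authors' peak caller. The ratio of coverage to FPKM, which follows sequencing depth, was 2.64 and 2.63 in knockout and 2.41 and 2.12 in control; read counts were not used here, so counting error per gene is unknown.

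Genes with a mean of at least 1 TPM (13228) were compared on log2(TPM + 1) with limma 3.58.1 in R 4.3.3 (eBayes with trend, genotype only, all 4 libraries, Benjamini-Hochberg over all tested genes). This scale understates the change of low genes. The code was tested on simulated data. The 10 housekeeping genes were above 0 in every library, but 4 were called higher and 5 lower in knockout. Over all tested genes, 25.2% were called higher and 14.7% lower. The housekeeping genes therefore give no unchanged reference here. Peak lists were joined by overlap and gene windows were searched with Python 3.11.15; promoters came from RefSeq. All 10 genes are named; from each other list, up to 4 called genes with the largest change were named, and any other gene named was chosen after its values were seen. The 10 genes and all lists were chosen with earlier results of these data known. Alternatives were another pseudocount (0.1), other filters, quantile and median-ratio scaling, FPKM, TPM without Rpph1 (added after the data were seen), a replicate term and leaving out each library, and for peaks a −log10 q of at least 10, a half-region overlap and a 10 kb window.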

Additional observations from a re-analysis of the deposited data

How the results depend on the processing

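The directions of Csf3r, Csf2ra, Itgam, Csf1r, Fcgr3 and Adgre1 were the same under every alternative that tested them; Csf3r and Itgam also kept their calls. Without the filter on low values 1 of the 10 genes was called lower, Csf2ra being lost as 21810 genes were tested. Leaving out 1 RNA library at a time gave 1 to 2 of the 10 genes called higher and 1 to 2 called lower, 2005 to 2242 genes called higher over all and 1088 to 1450 lower, and 4 to 6 genes of the partner lists called higher. The log2 change of Lyz2 was −0.11 after quantile normalization, −0.051 after median-ratio scaling and −0.014 with TPM rescaled without Rpph1, and −0.043 to 0.15 with 1 library left out. With 1 library left out it was −0.25 to 0.61 for Ly6c2 and −0.25 to 0.10 for Cd14. The cause was not tested, except that fewer libraries enter these fits. Within 10 kb of the genes the windows are smaller and held 69 regions. Of these, 4 were knockout-only (5.80%, against 6.63% of all regions) and 2 control-only (2.90% against 4.79%). In all 4 lists were 45 (65.2% against 59.1%). With a −log10 q of at least 10, 7 of 158 window regions were control-only (4.43%, against 5.36% of all regions). The knockout-only ones numbered 13 (8.23% against 5.95%). With 1 ATAC library left out, 19 to 20 regions were knockout-only (10.3% to 10.9%, against 9.47% to 12.8% of all regions). Control-only were 12 to 16 (6.59% to 8.70% against 6.75% to 8.54%). In all lists were 120 to 126 (65.2% to 68.5% against 63.8% to 64.1%).

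The replicate numbers are shared by the genotypes, but same-numbered libraries did not deviate together (correlation of deviations 0.0043 over 13228 genes). This cannot show whether they share an animal, culture or batch. With the replicate block 1 gene of the 10 was called higher and 3 lower, Fcgr3 passing at an adjusted p of 0.045, and 3072 genes were called higher and 1798 lower over all. Low coverage limits Fcgr1 and Adgre1, and ATAC depth is unknown.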

Other observations

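Genes next to the 10 genes were read from the same windows. Hars, Wdr55 and Slc35a4, in the Cd14 window, had 80.3 and 80.1, 36.6 and 36.8, and 49.6 and 41.8 TPM in knockout, against 50.6 and 54.7, 19.7 and 26.9, and 31.5 and 28.7 TPM in control, while Cd14 overlapped between the genotypes. Vav1, a signalling protein gene in the Adgre1 window, had 114 and 112 TPM in knockout and 146 and 141 TPM in control. Hist2h2bb, a histone gene in the Fcgr1 window, had 3030 and 3136 TPM in knockout and 2024 and 2083 TPM in control; histone genes have near-identical copies, so these values are uncertain. Pdgfrb, a stromal receptor gene next to Csf1r, had 109 and 97.3 TPM in knockout and 103 and 104 TPM in control. These genes were picked after their values were seen.

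The knockout libraries differed from each other in Ly6c2 (14.2 and 26.4 TPM), in Cebpb, a transcription factor of monocytes (9.0 and 20.6 TPM, against 21.6 and 28.5 TPM in control), and in Csf1 (16.0 and 5.93 TPM, against 8.37 and 8.33 TPM in control).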
